A study of Mus musculus with 9 samples.

Results

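The mRNA export protein Chtop was compared in the form that contains its alternative exon 5 and in the form that lacks it, for the RNA each form contacted in the 5' untranslated region (5' UTR) of messenger RNAs. RNA contacts were measured by iCLIP, in which ultraviolet light fixes RNA to protein, the protein is pulled down and the attached RNA is sequenced. The genes described are those with a mean of 10 or more 5' UTR counts over the 6 isoform libraries, which gave 851 genes. They came from 22442 genes in the count tables, of which 8872 had a 5' UTR entry and 3703 had at least 1 5' UTR count in these 6 libraries. At the edge of the rule, 54 genes had a mean from 10 to under 11 counts and 105 had a mean from 9 to under 10, and the nearest mean outside was 9.83.

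Both groups were N2a Flp-In rtTA cells, a mouse neuroblastoma line engineered to take up 1 cDNA and to express it under doxycycline. Group 1 expressed the FLAG-Chtop cDNA with exon 5 and group 2 the FLAG-Chtop cDNA without it. All cells received doxycycline at 2 µg/mL for 24 hours and were crosslinked at 254 nm with 0.15 J/cm2. Each group had 3 biological replicates, which the labels describe as harvested on different days. The protein was therefore a tagged, induced cDNA product and not the endogenous isoform. The 3 size-matched inputs were 2% of a lysate taken without pull-down, from the line without exon 5 (replicate 1), the line with exon 5 (replicate 2) and a FLAG-GFP line (replicate 3), and they entered no test here.

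Chtop is a subunit of the TREX complex, which couples the processing of a transcript to its export from the nucleus. TREX is loaded near the capped 5' end of spliced transcripts, and Chtop, together with Alyref, helps to pass the RNA to the export receptor formed by Nxf1 and Nxt1. The 5' UTR is the stretch between the cap and the start codon, which the small ribosomal subunit scans before translation begins. It is usually the shortest part of a messenger RNA, so that few crosslinked reads fall into it.

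The libraries with exon 5 held 23219, 25180 and 48428 5' UTR counts in replicates 1 to 3, and those without exon 5 held 20608, 36282 and 67110. The 5' UTR took 2.96%, 2.96% and 3.65% of all counts with exon 5 and 3.30%, 3.61% and 3.64% without it, so that the groups overlapped. The means were 3.19% ± 0.396 (SD, n = 3) and 3.52% ± 0.186 (SD, n = 3), a difference of -0.328 percentage points (two-sided exact permutation test, p = 0.4, where 3 libraries against 3 cannot go below 0.1). In the inputs the same share was 3.11% ± 0.275 (SD, n = 3), from 2282 to 5008 5' UTR counts. The 851 genes held between 72.2% and 80.4% of the 5' UTR counts of a library. Within a described gene, the median library share of counts in the 5' UTR was 8.99%, 9.80% and 13.0% with exon 5 and 11.8%, 13.3% and 15.1% without it. Among 22 named markers of neuroblastoma and sympathetic neurons, 20 had a mean of 10 or more counts over the whole gene, with summed levels of 4079 to 5197 CPM of whole-gene counts with exon 5 and 4077 to 4803 without it. Of 18 named markers of other cell types, 1 reached that mean and 8 were at 0 in all 6 libraries (among them Aldh1l1, Col1a2, Col3a1, Dcn, Krt18, Cdh1 and Hba-a1), and their summed levels were 9.40 to 15.8 CPM of whole-gene counts with exon 5 and 16.0 to 39.8 without it. The part of these marker levels in any result was not tested. The 5' UTR table held NA for Chtop itself, so the induced gene gave no value in this comparison.

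No gene's 5' UTR count differed between the isoforms past the threshold. Levels are given as CPM, which here means 5' UTR counts scaled to a library of 1000000 5' UTR counts with TMM factors, and 3 counts in a library equalled 50.8 to 128 CPM. The quasi-likelihood F-test of edgeR could be run on 700 genes, among them 664 described genes, while 187 described genes had too few libraries with enough counts. None of the 700 genes (0%) passed an adjusted p of 0.05 (Benjamini-Hochberg), and the lowest adjusted p was 0.585. At an unadjusted p under 0.05, 24 genes (3.43%) passed, 11 of them higher with exon 5 (1.57%) and 13 lower (1.86%). Of these 24, 23 were described genes (11 higher and 12 lower). DESeq2 and limma-voom also called 0 genes after adjustment, with 32 and 37 at an unadjusted p under 0.05. Leaving out replicate 3 with exon 5 gave 1 call, Pkm, the pyruvate kinase of glycolysis, and leaving out replicate 2 without exon 5 gave 1 call, Prrc1, which had too few libraries with enough counts for the test on all 6. Each isoform line had 1 input library, so that more contact per transcript and more transcript cannot be told apart in these counts.

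Libraries of the same group differed widely. The common dispersion of the 700 genes was 0.804, a biological coefficient of variation of 89.7%. The log2 fold changes of the 664 genes, with minus without exon 5, had a median standard error of 1.19 (0.36 to 2.33) and a median size of 0.68. They exceeded 1 in size for 211 genes and 2 for 48, with 305 above 0, 359 below 0 and a median of -0.11. Precision followed the level: the median standard error was 1.43 in the lowest of 3 equal level groups and 0.77 in the highest. The plot of fold change against level shows the same narrowing.

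**Figure D1:**
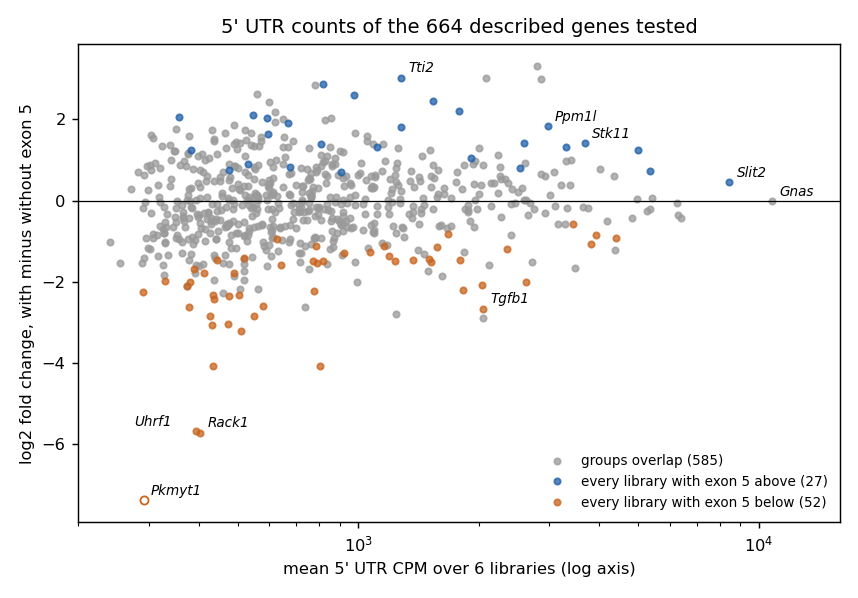
Each point is 1 of the 664 described genes tested, with the mean 5' UTR CPM of the 6 libraries on a log axis and the log2 fold change, with minus without exon 5, on the vertical axis. Blue marks the 27 genes with every library with exon 5 above every library without it, orange the 52 genes with every such library below, grey the 585 genes whose groups overlap, and the open symbol is Pkmyt1, whose libraries with exon 5 are all at 0 so that its fitted value is no measured fold. None passed the adjusted threshold.

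A second description, free of a model, counted genes whose 3 libraries with exon 5 all lay on one side of the 3 without it. Among the described genes, 100 (11.8%) had groups that did not overlap, 34 higher with exon 5 (4%) and 66 lower (7.76%). Among the 700 genes tested, the figures were 80 genes (11.4%), 27 higher (3.86%) and 53 lower (7.57%), and among all genes with a count, 6.45%. That last share includes genes with 0 in libraries of both groups, which cannot separate. For a gene without ties, a fraction of 0.1 of all label orders separates 3 libraries from 3. No excess over that fraction was tested. The split depended on the scaling: 36 were higher and 66 lower when only 5' UTR totals were used, and 22 higher and 71 lower when the factors came from whole-gene counts. The last scaling also moved the median log2 fold change of the 700 genes from -0.10 to -0.26. The rule of a mean of 10 raw counts weighs deeper libraries more, and the group without exon 5 held more 5' UTR counts. The numbers of higher and lower genes are therefore not to be compared.

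The 10 genes with the highest mean 5' UTR level had counts in every library of both isoforms. Gnas, which encodes the stimulatory G protein alpha subunit, stood first with 6606, 13478 and 12158 CPM with exon 5 and 6090, 9168 and 17263 CPM without it. Its 2 groups overlapped, and the log2 fold change was -0.01 ± 0.42 (SE), with values from -0.39 to 0.42 over the alternatives. Slit2, a secreted axon guidance protein, followed with 10144, 8959 and 10139 CPM with exon 5 and 5579, 8914 and 6956 CPM without it. Every library with exon 5 lay above the others, by 45 CPM at the closest point (log2 fold change 0.45 ± 0.36 SE, unadjusted p = 0.235 by edgeR). For Slit2, 68.4% of all gene counts lay in the 5' UTR.

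Hand2, a transcription factor of sympathetic neurons, was the other gene of this top group with separate ranges besides Slit2 and Gprasp1. It reached 6409, 7279 and 6430 CPM with exon 5 against 3194, 4641 and 4197 CPM without it, means of 6706 ± 496 and 4011 ± 741 (SD, n = 3 each). The log2 fold change was 0.74 ± 0.41 (SE, unadjusted p = 0.0898 by edgeR). Its coding sequence gave a value on the same side (1.06 ± 0.52 SE, adjusted p = 0.797 by edgeR).

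Rptor, the raptor subunit of the nutrient-sensing kinase complex mTORC1, shows how 1 library set a mean. It had 4718, 6119 and 5552 CPM with exon 5 and 1789, 3933 and 16163 CPM without it. Replicate 3 alone held the high value, and without that library the log2 fold change was 0.85 in place of -0.42. Nsd3, a histone methyltransferase, had 5701, 4879 and 5903 CPM against 5324, 5829 and 9985 CPM, and these ranges overlapped. The remaining genes of the top 10 were Ppp3ca (catalytic subunit of calcineurin), Gnao1 (a neuronal G protein alpha subunit), Ptprg (a receptor tyrosine phosphatase) and Tsc22d2, with log2 fold changes from -0.26 to 0.06 and overlapping groups. Together the top 10 held 6.68% of the 5' UTR counts.

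On the side of higher levels with exon 5, the gene with the lowest unadjusted p was Ppm1l, a membrane-bound serine/threonine phosphatase (chr3:69316918-69560798, GRCm38.p6). Its 5' UTR of 706 bases had 5229, 3120 and 5574 CPM with exon 5 and 1022, 1726 and 1168 CPM without it, from 133, 78 and 254 counts against 24, 61 and 69. Every library with exon 5 lay above every library without it. The log2 fold change was 1.83 ± 0.54 (SE, unadjusted p = 0.00353, adjusted p = 0.585 by edgeR).

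Stk11, the kinase LKB1 that activates AMPK (chr10:80115767-80130679), had close replicates in both groups. It had 4915, 4959 and 6210 CPM with exon 5 against 2215, 1754 and 2048 CPM without it. All 3 inputs had 0 counts, as for 508 of the 851 described genes. The groups were well apart, with means of 5362 ± 736 and 2006 ± 233 (SD, n = 3 each) and a log2 fold change of 1.42 ± 0.47 (SE, unadjusted p = 0.00777, adjusted p = 0.605 by edgeR). The coding sequence of Stk11 gave -0.12 ± 0.47 and its 3' UTR 0.24 ± 0.63 (log2 fold changes ± SE).

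The neighbouring X-linked genes Gprasp1 and Gprasp2 encode proteins that sort G protein-coupled receptors for degradation. Gprasp2 (chrX:135839034-135844730) had 4561, 4679 and 4960 CPM with exon 5 and 1448, 1302 and 2894 CPM without it. Gprasp1 (chrX:135742692-135803468) had 6134, 5199 and 9766 CPM against 2300, 1443 and 5145 CPM. Both sets of ranges were separate, that of Gprasp1 by a margin of 54 CPM, and the log2 fold changes were 1.32 ± 0.51 and 1.24 ± 0.51 (SE). Their coding sequences lay on the same side, at 1.04 ± 0.45 and 0.71 ± 0.21. Whether the related genes share reads was not tested.

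Kmt2e, a chromatin protein of the MLL family, had 3932, 4719 and 2699 CPM with exon 5 and 1107, 1811 and 1286 CPM without it (log2 fold change 1.43 ± 0.55 SE, unadjusted p = 0.0196 by edgeR). Its groups did not overlap, and 15.0% of the gene's counts lay in the 5' UTR. Mcm3ap encodes GANP, the scaffold of the TREX-2 export complex at the nuclear pore. It had 865, 5919 and 988 CPM with exon 5 and 681, 481 and 271 CPM without it. The groups were separate, but replicate 2 carried most of the difference: without that library the log2 fold change was 0.87, against 2.45 ± 0.88 (SE) with all libraries.

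The other genes of this side also had separate groups, with fewer counts. Tti2, a partner of the Tel2 complex that stabilises PIKK kinases, had 26, 31 and 209 counts with exon 5 and 3, 17 and 13 without it (log2 fold change 3.03 ± 0.91 SE). Ppp1r18, which encodes a subunit that targets protein phosphatase 1, had 12, 21 and 137 counts against 0, 16 and 7. In both genes replicate 3 with exon 5 was the high library, and without it the log2 fold changes were 2.01 for Tti2 and 1.75 for Ppp1r18, against 2.88 ± 1.21 (SE) for Ppp1r18 with all libraries. Cuedc1, a CUE-domain gene, had 53, 59 and 27 counts against 6, 11 and 15, and here replicate 3 was the lowest of its group. The gene 2410002F23Rik, whose annotated 5' UTR spans 3281 bases, had 70, 91 and 111 counts with exon 5 and 3, 29 and 55 without it, but also 40, 131 and 58 counts in the much smaller inputs.

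**Figure D2:**
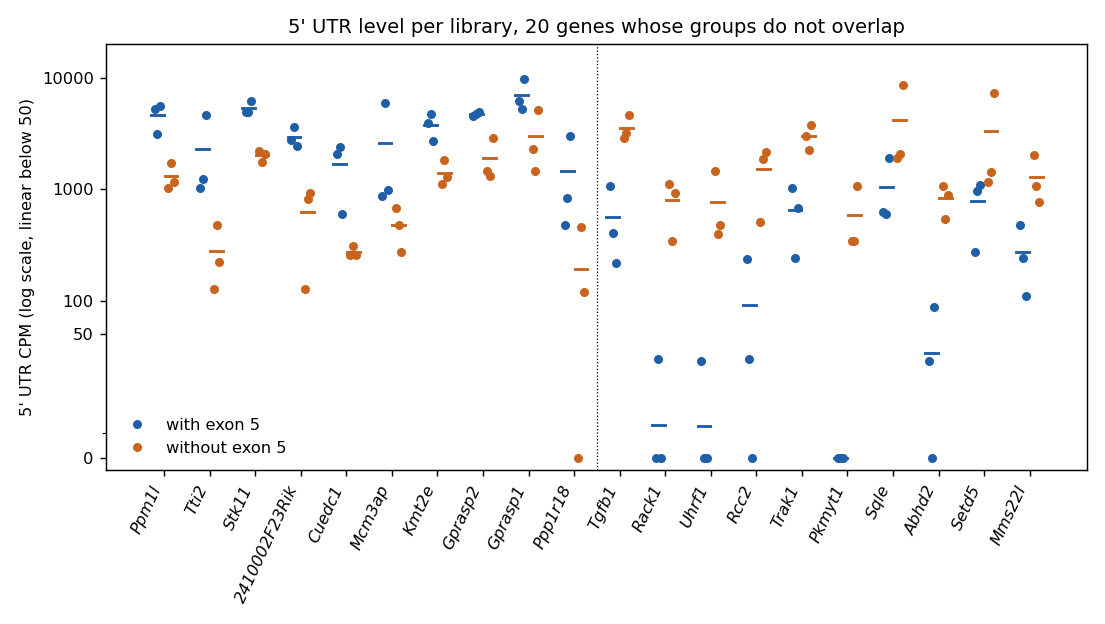
5' UTR CPM (log axis, linear below 50 CPM) of the 20 genes named for groups that do not overlap, with 1 point per library and a line at the mean of 3. The 10 genes left of the dotted line lie higher with exon 5 (blue) and the 10 on its right lie lower, where Pkmyt1 has 0 in all libraries with exon 5 and Rack1 and Uhrf1 have 1 count each.

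On the side of lower levels with exon 5, Tgfb1 had the lowest unadjusted p of all genes. It encodes the cytokine TGF-beta 1 (chr7:25687002-25705077), and 87.5% of its counts lay in the 5' UTR of 867 bases. Its levels were 1062, 400 and 219 CPM with exon 5 and 2854, 3198 and 4570 CPM without it. The lowest library without exon 5 lay 1792 CPM above the highest library with it. The log2 fold change was -2.67 ± 0.71 (SE, unadjusted p = 0.00168, adjusted p = 0.585 by edgeR).

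Trak1, an adaptor that links mitochondria to kinesin motors (chr9:121297502-121474919), had 1022, 240 and 680 CPM with exon 5 and 2981, 2264 and 3774 CPM without it. These ranges were far apart (log2 fold change -2.21 ± 0.71 SE, unadjusted p = 0.00641 by edgeR). None of the inputs had a Trak1 count, as for 508 of the 851 described genes. Sqle, the squalene epoxidase of cholesterol synthesis, had 629, 600 and 1887 CPM against 1916, 2066 and 8598 CPM. The gap between its groups was 29 CPM, and replicate 3 was the high library in both. The log2 fold change of Sqle was -2.00 ± 0.71 (SE), or -1.01 without replicate 3 lacking exon 5. Setd5, a chromatin regulator with a SET domain, had 275, 960 and 1097 CPM against 1150, 1415 and 7294 CPM, and without the last library its log2 fold change was -0.79 in place of -2.07. Mms22l, a replication-fork repair factor, had 472, 240 and 110 CPM against 2002, 1075 and 762 CPM.

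Several genes on this side had almost no 5' UTR counts with exon 5. Rack1, a protein of the small ribosomal subunit (chr11:48800360-48806241), had 0, 1 and 0 counts with exon 5 and 26, 12 and 55 without it, in a 5' UTR of 104 bases. The inputs held 22, 16 and 7 Rack1 counts. They were much smaller, with 3827, 5008 and 2282 5' UTR counts against 20608 to 67110 in the isoform libraries. Uhrf1, a reader of DNA methylation at replication forks (chr17:56303337-56323486), had 1, 0 and 0 counts against 34, 14 and 28. Rcc2, a regulator of chromosome condensation and cell spreading, had 6, 1 and 0 counts against 12, 66 and 128, and Abhd2, a lipid hydrolase, 1, 0 and 4 against 25, 19 and 52. In all of these, every library without exon 5 lay above the group with it. The adjusted p by edgeR was 0.585 for Rack1, Uhrf1 and Rcc2 and 0.619 for Abhd2.

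Pkmyt1, the kinase that holds Cdk1 inactive before mitosis (chr17:23726336-23736735), had 0 counts in all libraries with exon 5 and 8, 12 and 63 without it. Set against a floor of 3 counts per library, its mean CPM was at least 5.75-fold lower with exon 5. In all, 22 described genes were at 0 in every library with exon 5 and 5 in every library without it. A gene at 0 in one group met the mean of 10 counts only through the other, and the group without exon 5 held more 5' UTR counts, so these numbers are not to be compared. Pkmyt1 was the only one of these 27 that passed the filter for the test. The bounds of the others were highest for Sema6c, a semaphorin, at least 19.2-fold higher with exon 5 (0, 119 and 14 counts). Prrc1 was at least 14.5-fold lower (11, 2 and 229 counts without exon 5) and Frmd6, a FERM-domain protein, at least 12.0-fold lower (0, 112 and 28 counts). Each of these bounds rested on 1 library that held 93.9%, 88.1% or 87.0% of the gene's CPM. The Wnt pathway scaffold Axin2 was at least 9.25-fold lower, with 1, 50 and 80 counts without exon 5. These genes were picked out after their values were seen.

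The same contrast was run on the other parts of the described genes. In the coding sequence (CDS), 0 of 6214 genes tested (0%) passed the adjusted threshold of edgeR, and 6.45% passed an unadjusted p of 0.05. Of 766 described genes tested there, 66 passed the unadjusted threshold, with a median standard error of 0.56. In the 3' UTR, 0 of 4616 genes tested (0%) passed after adjustment and 6% before it, with 44 of 586 described genes at an unadjusted p under 0.05 and a median standard error of 0.73. The 34 genes higher in the 5' UTR had a median CDS log2 fold change of 0.13, with 20 of 32 tested above 0. The 66 lower genes had a median of -0.12, with 24 of 61 above 0, and the other described genes had -0.02, with 330 of 673 above 0.

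For several genes picked for separate 5' UTR groups, the CDS log2 fold change lay near 0. Such a contrast can follow from the choice by 5' UTR values, and this was not tested. The CDS log2 fold change was -0.01 ± 0.54 for Rack1, 0.05 ± 0.53 for Uhrf1, 0.03 ± 0.40 for Trak1 and -0.02 ± 1.25 for Pkmyt1 (SE). Rack1 had 53, 104 and 86 CDS counts with exon 5 and 80, 94 and 82 without it, so its CDS was well covered in both groups. In Trak1, 10.7%, 2.78% and 6.81% of the gene's counts lay in the 5' UTR with exon 5 and 31.0%, 30.3% and 39.8% without it. In Pkmyt1 the share was 0% in all libraries with exon 5, from 3 to 24 CDS counts, and 47.1%, 60.0% and 55.3% without it. Tgfb1, by contrast, had a CDS log2 fold change of -2.22 ± 1.71 (SE), from 0, 1 and 12 CDS counts with exon 5 and 11, 19 and 28 without it.

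**Figure D3:**
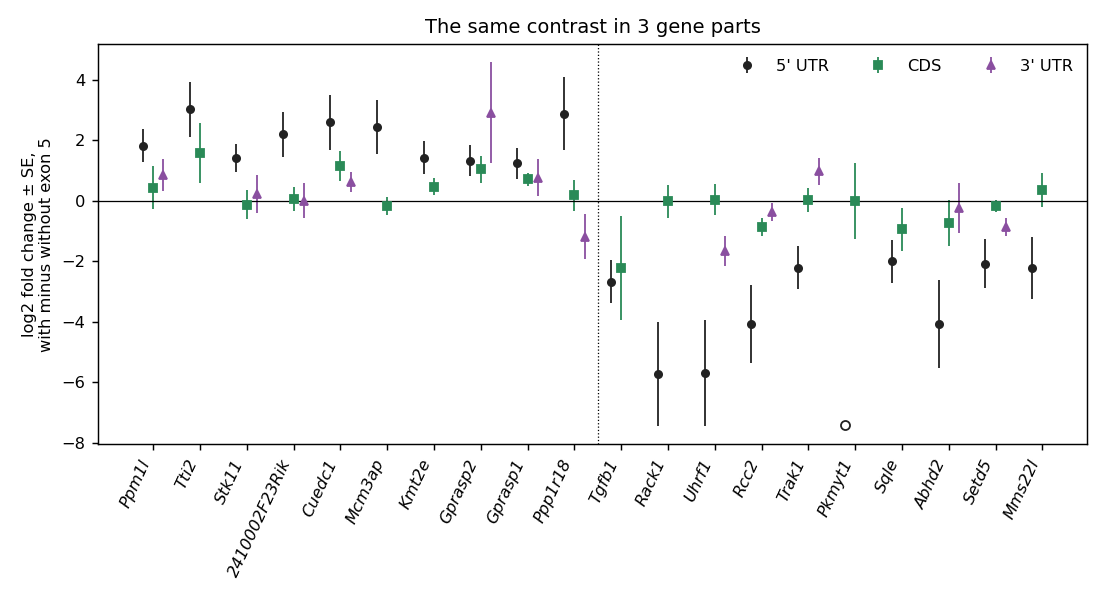
Log2 fold change, with minus without exon 5, for the 5' UTR (black), CDS (green) and 3' UTR (purple) of the 20 genes named for 5' UTR groups that do not overlap, with bars of 1 SE. Parts that were not tested are left blank, and the open symbol of Pkmyt1 is a fitted value against libraries that are all at 0. Rack1, Uhrf1, Trak1 and Pkmyt1 have CDS values between -0.02 and 0.05.

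Relative use of the 5' UTR, its counts set against the gene's CDS and 3' UTR counts, was tested with diffSpliceDGE of edgeR. No gene of 667 tested (0%) passed the adjusted threshold, and 21 (3.15%) had an unadjusted p under 0.05. Among 632 described genes tested, 20 reached the unadjusted threshold and the lowest adjusted p was 0.339. In order of the unadjusted p, the first 5 genes with lower use with exon 5 were Rack1, at -3.77 on the log2 scale (unadjusted p = 0.00168, adjusted p = 0.339 by edgeR), followed by Pkmyt1, Trak1, Uhrf1 and Rcc2. Trak1 had a relative use of -1.58 and Rcc2 of -2.50. On the side of higher use with exon 5 stood Mcm3ap, with 11.1%, 35.9% and 14.5% of its counts in the 5' UTR against 7.66%, 5.84% and 3.13% (1.48 on the log2 scale, unadjusted p = 0.0130, adjusted p = 0.994 by edgeR). Those shares did not overlap between the isoforms. Onecut2, Ppp1r18, 2410002F23Rik and the retinoic acid receptor Rara followed, with relative use values of 1.91, 1.87, 1.15 and 1.24.

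Single libraries weighed heavily on many described genes. Only 471 of the 851 had a count in all 6 libraries. For 196 genes, over 50% of the CPM summed over the 6 libraries lay in 1 library, which was replicate 3 without exon 5 for 73 of them and replicate 3 with exon 5 for 41. Of these 196, 132 were among the 187 genes not tested. Arhgef19, a guanine nucleotide exchange factor, had 543 counts in replicate 3 with exon 5 and 0 to 3 in each of the other libraries. Marcksl1, an actin-binding MARCKS relative, had 615 counts there and 0 to 20 elsewhere, and the sodium channel gene Scn8a had 224 counts in replicate 1 with exon 5, none in the other 2 of its group and 5 to 20 without exon 5. These examples were picked after their values were seen. The median coefficient of variation within a group was 85.3% with exon 5 and 68.0% without it.

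**Figure D4:**
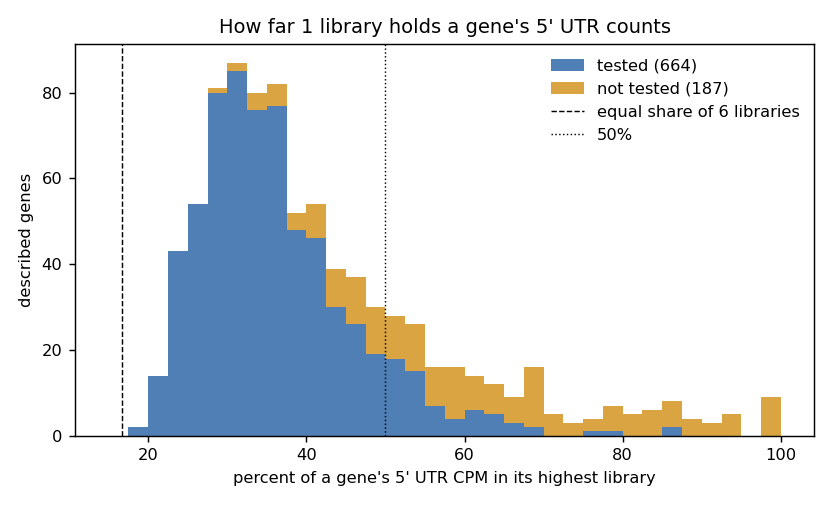
Histogram of the share of a gene's 5' UTR CPM found in its highest library, for the 664 described genes tested (blue) and the 187 not tested (yellow, stacked). The dashed line is an equal share over 6 libraries and the dotted line 50%, to the right of which lie 196 genes, 132 of them not tested.

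The logarithm of the CPM correlated weakly between libraries over the 851 genes, with Pearson's r from 0.33 to 0.45 among libraries without exon 5, from 0.29 to 0.41 among those with it and from 0.25 to 0.43 between the groups. These values describe genes that share libraries, and genes are not independent replicates. Pairs within a group did not stand apart from pairs across groups.

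Gene lists drawn up for this cell type and protein gave 0 calls in every list, as for all 700 genes tested. List sizes include genes without a 5' UTR entry, which could not be described. Of all 8872 genes with an entry, 851 were described. Of 30 mRNA export genes, 4 were described and tested, with a median log2 fold change of -0.27 beside -0.11 for all 664 described genes tested. They were the Chtop partner Ddx39b, the RNA helicase of TREX (10, 74 and 83 counts with exon 5, 53, 61 and 313 without it), the export receptor Nxf1 (43, 36 and 22 against 36, 31 and 75), the nuclear pore factor Rae1 and Mcm3ap. Only Mcm3ap had separate groups, 1 of 4 beside 11.4% of all genes tested. Among 43 translation factors, 5 were described and 4 tested (median -0.14), with Eef2, the elongation factor, at 43, 28 and 52 counts against 18, 40 and 44. Pabpc4, a cytoplasmic poly(A)-binding protein, had 284, 95 and 12 counts against 27, 24 and 7, groups that overlapped (log2 fold change 2.99 ± 1.26 SE, unadjusted p = 0.0450 by edgeR).

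Among genes for splicing, 7 of 25 SR protein genes were described and tested, with a median of -0.30, and none had separate groups. Srrm2, a scaffold of nuclear speckles, had 43, 49 and 191 counts with exon 5 and 52, 123 and 235 without it. Of 52 hnRNP and other splicing regulator genes, 13 were described and 10 tested, with a median of 0.36. Taf15, an RNA-binding protein, had 5, 3 and 0 counts against 13, 23 and 20, separate in the lower direction, and was not tested. Of the 13, 1 lay higher and 1 lower with separate groups, beside 4% and 7.76% of all described genes. Of 34 core spliceosome genes 3 were described (2 tested, median -0.63), and of 21 cleavage and polyadenylation factors 3 (1 tested, -0.65). None of 14 genes of arginine methylation was described, and only 7 of them had a 5' UTR entry.

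Of 78 chromatin regulators, 16 were described and tested, with a median of -0.20 and a range from -2.84 to 1.43. Kmt2e lay higher, as given above, while Ep300, Setd5 and Smarca4 lay lower with separate groups, 1 and 3 genes of 16 beside 3.86% and 7.57% of all genes tested. Ep300, a histone acetyltransferase and coactivator, had 82, 62 and 122 counts with exon 5 and 138, 156 and 287 without it, means of 2794 ± 386 and 5050 ± 750 CPM (SD, n = 3 each) and a log2 fold change of -0.85 ± 0.45 (SE, unadjusted p = 0.0779 by edgeR). Smarca4, the ATPase BRG1 of the SWI/SNF complex, had 0, 0 and 13 counts against 27, 14 and 43. Trim28, the KAP1 corepressor, had 121, 78 and 32 against 21, 34 and 95, and its groups overlapped.

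Of 60 synapse, axon and cytoskeleton genes, 11 were described and 9 tested, with a median of 0.40. Only Slit2 had separate groups, 1 of 11 beside 11.8% of all described genes. Nrxn2, a presynaptic adhesion protein, had 190, 58 and 78 counts with exon 5 and 44, 148 and 157 without it. Ank3, the ankyrin of the axon initial segment, had 135, 67 and 54 against 21, 55 and 103. Of 40 ion channel genes 3 were described and 1 tested, Kcnc1, at -0.21. Of 51 genes of the MAP kinase cascade, 8 were described and 6 tested (median -0.58). Only 1 of the 8 had separate groups, beside 11.8% of all described genes: Dusp4, a phosphatase that inactivates MAP kinases. It had 92, 66 and 129 counts with exon 5 and 132, 164 and 418 without it, means of 3029 ± 518 and 5779 ± 1224 CPM (SD, n = 3 each; log2 fold change -0.93 ± 0.44 SE, unadjusted p = 0.0512 by edgeR). Man2a1, a Golgi mannosidase, and Myt1l, a neuronal zinc finger factor, were near it in level and had overlapping groups, with log2 fold changes of 0.05 ± 0.47 and -0.58 ± 0.50.

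Ubiquitin ligase genes of the F-box, TRIM and HECT families gave 10 of 53 described and tested, with a median of -0.32. Fbxw7, which marks cyclin E and other growth regulators for degradation, lay higher with separate groups (42, 43 and 121 counts against 0, 16 and 71), and Fbxo42 lay lower (7, 1 and 40 against 29, 40 and 69). Of 32 neuroblastoma identity genes 4 were described and tested (median -0.25). Besides Hand2, which lay higher, Vgf, a secreted neuropeptide precursor, lay lower with separate groups at 101, 32 and 97 counts against 122, 191 and 292 (log2 fold change -1.07 ± 0.51 SE, unadjusted p = 0.0505 by edgeR). Both lists thus had 1 gene higher and 1 lower with separate groups, of 10 and 4 tested, beside 3.86% and 7.57% of all genes tested. Vgf also had 209, 28 and 16 counts in the much smaller inputs. None of 33 markers of other cell types was described, and 18 of them had a 5' UTR entry.

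The remaining lists had few described members. Of 269 Zfp zinc finger genes 20 were described and 15 tested, with a median of 0.19, and Zfp263 and Zfp638 had separate groups in the lower direction, 2 of 20 beside 7.76% of all described genes. Of 48 immediate-early and intronless transcription factor genes 4 were described (median 1.03), among them Egr1 at 16, 44 and 85 counts against 73, 35 and 52, and none had separate groups. Of 45 cell cycle genes 4 were described (median -0.03), of 34 chaperone genes 2 (1 tested, -1.43), and of 27 stress response genes with upstream reading frames 3 (2 tested, 0.17). Of 48 cytosolic ribosomal protein genes, 47 had a 5' UTR entry and 2 were described: Rpl4 had 6, 5 and 37 counts against 14, 14 and 29, and Rpl38 had 51, 0 and 11 against 1, 2 and 1. With factors from whole-gene counts, the median of the stress response list turned from 0.17 to -0.04, and with 5' UTR totals alone that of the cell cycle list turned from -0.03 to 0.01; no other list median changed sign under these scalings.

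**Figure D5:**
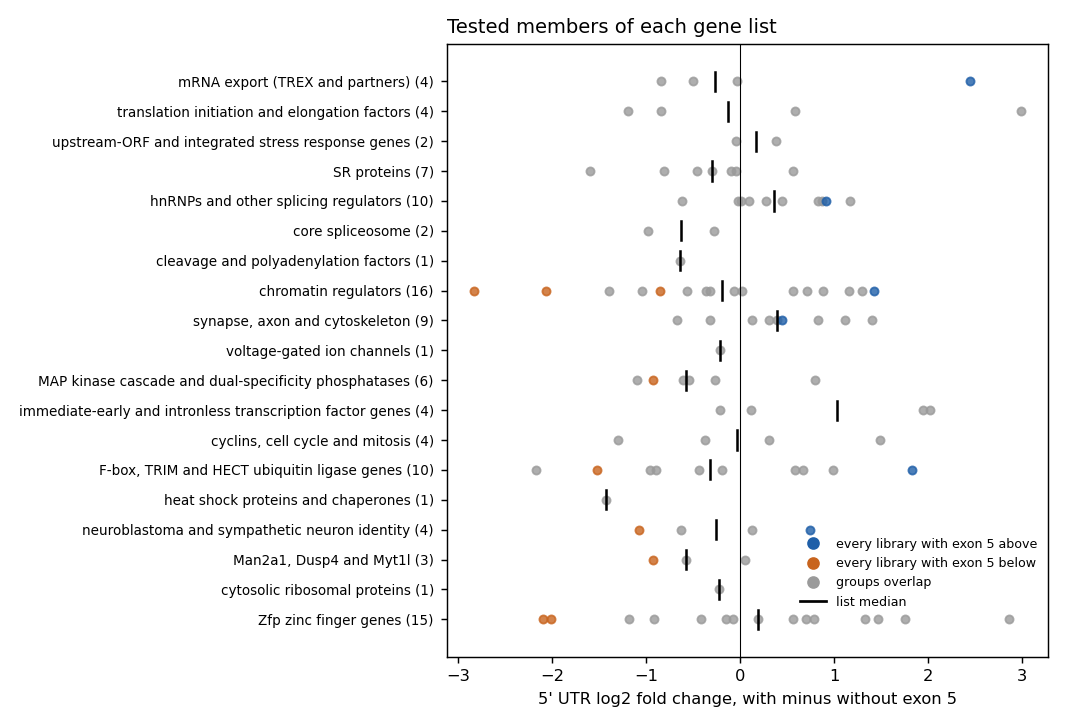
5' UTR log2 fold change, with minus without exon 5, of the tested members of each gene list, with the number tested in brackets and a black bar at the list's median. Blue and orange points are genes with every library with exon 5 above or below those without it, and grey points are genes whose groups overlap; none passed the adjusted threshold.

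The described genes had long 5' UTRs. Their median length was 436 bases (25 to 3360), against 197 over all genes with a 5' UTR entry, and a longer region can collect more counts. The first 50 transcribed bases, known for 686 of the 851 genes from RefSeq's GRCm38.p6 start sites, had a median GC content of 68%. GC content was not measured over whole 5' UTRs or over other genes, so it is no trait particular to the described genes. Genes higher with exon 5 in every library had a median length of 684.5 bases, lower genes 428.5 and the others 431, with median GC contents of 67%, 68% and 68%. These groups were set by the contrast itself, so the values are a description. Per 100 bases of 5' UTR, the densest genes were Ankrd16, with only 25 bases, Ccnl2 with 39 bases, the elongation factor Eef2, Zswim8, Gnao1 and Rsrp1, at 1460 to 1079 CPM per 100 bases. Rsrp1, an arginine/serine-rich protein, had one of the most even levels, with 2595, 2000 and 2612 CPM with exon 5 and 2854, 2547 and 2149 CPM without it.

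The share of a described gene's counts that lay in the 5' UTR had a median of 16.9%. For 68 genes it exceeded 50%, among them Slit2, Ppp3ca at 55.5%, Ptprg at 52.8%, Hand2 at 52.9% and Gsk3b, the glycogen synthase kinase, at 62.2%. In the inputs, 343 of the 851 genes had at least 1 5' UTR count and 508 had none. Eif4g1, the scaffold of the cap-binding complex, was an extreme of the inputs with 275, 8 and 0 counts there, against 9, 5 and 26 with exon 5 and 25, 22 and 22 without it.

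The authors' deposited table gives 408 genes a 5' UTR class based on a 1-unit log2 fold change in the same direction in all replicates, of which 394 were described here. In the authors' deposited table, 37 genes were classed as higher with exon 5, 62 as higher without it and 309 as both. Of the first, 36 were described and 21 had separate groups here; of the second, 53 were described and 41 had separate groups; of the third, 305 were described and 13 had separate groups. Over all described genes, 11.8% had separate groups. These classes come from the same libraries and so add no independent evidence. No gene of any class passed the adjusted threshold of edgeR. Of 33, 51 and 305 tested, 10, 9 and 1 had an unadjusted p under 0.05, beside 3.43% of all genes tested. Rack1, Pkmyt1 and 2410002F23Rik carried no 5' UTR class in the authors' deposited table.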

How the data were processed

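The authors deposited raw counts for each gene's 5' UTR, CDS, 3' UTR and total, per the file headers, as well as part lengths in bases. The authors also deposited a log2 fold change and an isoform class per gene part. The submitters' processing notes name mm10, TopHat2 and DESeq2, without versions. The sources used here do not give how reads were counted, whether strand was used, or whether random barcodes served to collapse reads. In these tables, 27 other columns of per-sample values were not used.

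Only the 6 isoform libraries entered the fits, and 13570 rows with NA in the 5' UTR table were left out. Their totals ran from 624062 to 1844970 counts. The main test was edgeR 4.0.16 (R 4.3.3): TMM factors of the 5' UTR table, filterByExpr (minimum count 10, minimum total 15), robust quasi-likelihood F-test, Benjamini-Hochberg over all 700 genes tested, threshold 0.05. Log2 fold changes are with minus without exon 5, and their SE was taken from the F statistic. Relative use was tested with diffSpliceDGE of edgeR, and the share of counts by an exact permutation test. DESeq2 1.42.0 and limma 3.58.1 (voom), other scalings and filters, a replicate block, all 9 libraries in 1 fit and each library left out were alternatives. Floors of 3 counts cover counting error only. Coordinates come from RefSeq's GRCm38.p6 gene table, which matches mm10. The scripts were tested on simulated counts.

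Named genes are the 10 of highest mean CPM, per direction 10 genes past the threshold or, as here, 10 with separate groups in order of unadjusted p, the 5 of lowest p per direction in relative use, and for each list those of highest mean CPM; others are named as chosen after their values were seen. The members, lists and rules were chosen with earlier results of these data known.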

Additional observations from a re-analysis of the deposited data

How the results depend on the processing

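The 5' UTR fit rested on 3 libraries per group, with a coefficient of variation of 89.7% and a median standard error of 1.19 on the log2 scale, against 0.56 in the CDS and 0.73 in the 3' UTR of described genes. Beside 0 calls in the 5' UTR, testing all genes with a count gave 3 (Prrc1, Sema6c and Frmd6; 3703 tested, 165 at an unadjusted p under 0.05), and leaving out each library gave 0 to 1: Pkm without replicate 3 with exon 5, Prrc1 without replicate 2 lacking exon 5. Relative use gave 0 to 2 calls when a library was left out, with 2 without replicate 3 with exon 5. The difference in share of counts ran from -0.556 to -0.212 points when a library was left out, and taken as the median over described genes it was -2.80 points (exact permutation p = 0.2). In the 3' UTR, totals without TMM gave 1 call among the 586 described genes tested there. Same-numbered libraries deviated with correlations of 0.063, 0.036 and 0.041 over genes, against -0.056 to 0.012 for the other pairs across isoforms, so that each library correlated best with its own number. All values were under 0.1, and the labels do not say whether a number marks a shared day. Deviations were taken from the mean of each group, so positive values in some pairs go with negative values in others. Whether same-numbered libraries share a day was not tested. With the replicate number as a block, the 5' UTR had 0 calls (29 at an unadjusted p under 0.05) and relative use 0. Among described genes, the block gave 0 calls in the 3' UTR (586 tested) and 5 in the CDS (766 tested). The share difference stayed at -0.328 (p = 0.5, exact permutation within pairs). The CDS and 3' UTR alternatives were chosen after seeing the data. The 20 genes named for separate groups kept their direction under each alternative that could fit them, while Gnas, Rptor, Ppp3ca and Gnao1 turned in some. The 20 were chosen for separate groups in these same libraries, so a kept direction follows largely from the choice and is no support for a change. Gnas, Ppp3ca and Gnao1 had main log2 fold changes of -0.01, -0.06 and 0.06, where a sign turns easily. The median log2 fold change of the tested genes was -0.10 with TMM, -0.26 with factors from whole-gene counts and -0.08 with totals alone. The causes of these changes were not tested.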

Other observations

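For 153 of the 851 described genes, over 80% of the 5' UTR CPM lay in 2 of the 6 libraries. In 31 of these the 2 libraries carried the same replicate number but different isoforms, in 73 they were of the same isoform and in 49 they shared neither. The share with the same number, 20.3%, was close to that of all 851 genes, where the 2 highest libraries had the same number in 192 (22.6%). Of the 31, 22 were in both replicates 3, the deepest library of each group, 8 in both replicates 2 and 1 in both replicates 1. Tnfsf13b, which encodes the B cell survival factor BAFF, had 455 counts in replicate 3 with exon 5, 340 in replicate 3 without it and 0 in the other 4 libraries. Wapl, which releases cohesin from chromatin, had 6, 11 and 440 counts with exon 5 and 36, 17 and 751 without it. Anp32b, a histone chaperone, had 64 and 10 counts in both replicates 2 and 0 elsewhere. These genes were picked after their values were seen, and no test of the pattern was run.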
